A study of Homo sapiens with 12 samples.

Results

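The 38 genes described here regulate or carry out apoptosis, the programmed death of a cell. They were taken by gene symbol from both count tables and are 38 of the 38434 named genes: 18 genes of the BCL2 family, 7 caspases, 5 genes of the apoptosome and of proteins that leave the mitochondrion, 2 inhibitors of apoptosis proteins (IAPs), and 6 death receptor genes with their adaptors. The study put maspin, the serpin encoded by SERPINB5, back into LK-2 and RERF-LC-AI cells, both established human lines of lung squamous cell carcinoma (LUSC), and sequenced mRNA. It asked which genes change with maspin in each line. There are 4 groups with 3 libraries each, 12 in all. LK2-maspin and LC-AI-maspin cells carry a lentiviral vector for maspin and the green fluorescent protein ZsGreen. LK2-ctrl and LC-AI-ctrl cells carry a lentiviral vector for ZsGreen alone, so that ZsGreen, transduction and blasticidin selection are common to all 4 groups. LK-2 cells grew in RPMI1640 and RERF-LC-AI cells in Eagle's minimum essential medium. Each group is a pool of the clones that survived blasticidin, not a single clone. The sources used here name neither the promoter of the vector nor separate cultures behind the 3 libraries of a group, so that p-values measure the spread between these libraries, which may be technical.

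Caspases are proteases that lie dormant in the cell until they are cut or brought together, and apoptosis begins when they are switched on. In the mitochondrial route, BAX, BAK1 and BOK open the outer mitochondrial membrane, pro-survival proteins such as BCL2 and MCL1 hold them back, and BH3-only proteins such as BBC3 and BAD set them free. Cytochrome c then leaves the mitochondrion and forms the apoptosome with APAF1 and caspase-9, while IAPs restrain caspases. In the death receptor route, ligand-bound FAS or TNFRSF1A gathers the adaptors FADD or TRADD and caspase-8. Much of this control lies in cleavage, binding and turnover of the proteins, which RNA sequencing does not read.

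Maspin transcript matched the labels of all 12 libraries. SERPINB5 had 50.9, 50.7 and 48.4 CPM in LK2-maspin libraries, against 2.02, 2.01 and 1.87 CPM in LK2-ctrl libraries, with a log2 fold change of 4.67 ± 0.09 (adjusted p = 1.61e-10) in the quasi-likelihood test of edgeR, where ± is the standard error (SE) of every log2 fold change given. It had 513, 479.6 and 438 CPM in LC-AI-maspin libraries, against 0.271, 0.143 and 0.201 CPM in LC-AI-ctrl libraries, a log2 fold change of 11.18 ± 0.11 (adjusted p = 5.61e-33). Every maspin library lay above every ctrl library of its line, and counts do not tell the vector's transcript from the cell's own. CPM are counts relative to the library total, scaled by TMM (trimmed mean of M values) within a line, and adjusted p is the Benjamini–Hochberg value over all genes tested in the line, with 0.05 as the threshold.

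The 6 LK-2 libraries held 39802246 to 54941357 counts, and the 6 RERF-LC-AI libraries 50143577 to 65454432. The squamous label had thin support in the markers. TP63, KRT14 and KRT6A were under 4 CPM in every library, and of 6 squamous markers SOX2 alone was high, at 402 to 564 CPM in LK-2 libraries but under 1 CPM in all others. The summed level of these 6 was 422 to 483 CPM in LK2-maspin against 529 to 571 CPM in LK2-ctrl libraries, and 2.85 to 3.50 CPM in LC-AI-maspin against 2.63 to 3.17 CPM in LC-AI-ctrl libraries. Epithelial and mesenchymal markers did not divide the lines cleanly. The filament VIM had 1488 to 1708 CPM in RERF-LC-AI libraries and under 1 CPM in LK-2 libraries, the cadherin CDH2 under 1 CPM in RERF-LC-AI and 294 to 392 CPM in LK-2 libraries, the adhesion protein EPCAM 4.08 to 5.95 and 524 to 615 CPM, and the keratin KRT8 941 to 1395 and 611 to 804 CPM. The summed level of 5 epithelial markers was 1431 to 1543 CPM in LC-AI-maspin against 1954 to 2076 CPM in LC-AI-ctrl libraries, where KRT8 and KRT18 fell, and KRT19 fell but missed the threshold under 5 alternatives, and 2053 to 2105 CPM in LK2-maspin against 1844 to 1886 CPM in LK2-ctrl libraries, where none of the 5 passed this test and KRT8 passed the likelihood ratio test and DESeq2 (adjusted p = 0.0477 and 0.0253). Of 6 mesenchymal markers, COL1A2 and PDGFRB fell in LC-AI-maspin cells, and the summed levels overlapped (1652 to 1814 against 1759 to 1940 CPM). Of 6 squamous markers, the keratin KRT5 alone passed the quasi-likelihood test in LK-2 cells. It rose to 5.62 to 9.08 CPM in LK2-maspin from 0.665 to 1.01 CPM in LK2-ctrl libraries. The likelihood ratio test and DESeq2 also called KRT6A, higher, and SOX2, lower (402 to 468 against 521 to 564 CPM). Of 5 neuroendocrine markers, the neural adhesion gene NCAM1 rose in LC-AI-maspin cells (adjusted p = 0.0485), a call lost under 6 of 16 alternatives. The 3 others tested there had log2 fold changes below 0 and did not pass. In LK-2 cells none of the 5 passed, and INSM1 had 25.0 to 26.9 against 29.3 to 33.9 CPM. Of 5 leukocyte markers CD3E was under 1 CPM in every library and CD68 had at least 39.1 CPM in every RERF-LC-AI library, with summed levels of 43.3 to 47.0 CPM in LC-AI-maspin against 46.2 to 47.1 CPM in LC-AI-ctrl libraries, and 6.98 to 9.25 CPM in LK2-maspin against 7.05 to 8.14 CPM in LK2-ctrl libraries. Of 4 endothelial markers CDH5 was under 1 CPM in every library and PECAM1 had 1.25 to 4.69 CPM. The quasi-likelihood test called 0 leukocyte and 0 endothelial markers in either line, with 1 and 2 at an unadjusted p under 0.05 in RERF-LC-AI cells and 0 in LK-2 cells, and the likelihood ratio test called PTPRC in RERF-LC-AI cells. The part of these shifts in the results below was not tested.

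In LC-AI-maspin cells 1 of the 37 apoptosis genes tested rose and 6 fell, and all 7 changes were smaller than 1.5-fold. The gene that rose was BBC3, and those that fell were BIRC2, ENDOG, FADD, BOK, BAD and AIFM1. BIRC2, FADD and BAD lie on chromosome 11, and BBC3, ENDOG, BOK and AIFM1 on chromosomes 19, 9, 2 and X. CASP1 and CASP4 lie on chromosome 11 as well and did not pass (log2 fold changes 0.89 and -0.06). A link to the chromosome was not tested. These 7 are 18.9% of the genes, 2.70% higher and 16.2% lower, where 10.5% of all 25197 genes in the test of that line were called, 4.01% higher and 6.53% lower. That split of all genes, 1010 higher and 1645 lower, depends on the scaling and was 1305 and 1388 under upper-quartile factors and 1408 and 1287 with library size only, while the apoptosis genes had 1 higher and 6 lower, and 1 higher and 5 lower. The median log2 fold change was -0.04 over the apoptosis genes and 0.01 over all genes, and the median size was 0.07 against 0.15, in sets not matched for expression level. With the replicate number as a block BCL2 passed as well, higher, and BCL2L1 and CYCS passed as well, lower. That blocked fit called 16.2% of all genes, 6.34% higher and 9.85% lower. In bulk RNA, fewer cells of a kind and less RNA per cell cannot be told apart.

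In LK2-maspin cells none of the 37 apoptosis genes tested passed the threshold in edgeR's quasi-likelihood test, where 0.533% of all 26270 genes did. BOK alone had an unadjusted p under 0.05, with a log2 fold change of 0.37 ± 0.14 (adjusted p = 0.588), and the likelihood ratio test of edgeR and DESeq2 called 0 as well. With the replicate number as a block, BOK passed in LK-2 cells (log2 fold change 0.36, adjusted p = 0.00364), where 4.53% of all genes did. The median log2 fold change was 0.03 over the apoptosis genes and -0.001 over all genes, and 26 of the 37 values were above 0. For 32 of the 37 genes the approximate 95% interval of the log2 fold change, taken from the normal distribution, lay within 0.5 of 0. With so few libraries it is somewhat too narrow, and BIK and HRK ended close to the limit, at 0.479 and 0.497. The 5 others, BOK, BMF, BBC3, CASP1 and TNFRSF1A, had intervals that reached past it. BCL2A1, a pro-survival gene of the immune system, failed the expression filter in both lines, with 0 to 14 counts a library, and was not tested.

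**Figure D1:**
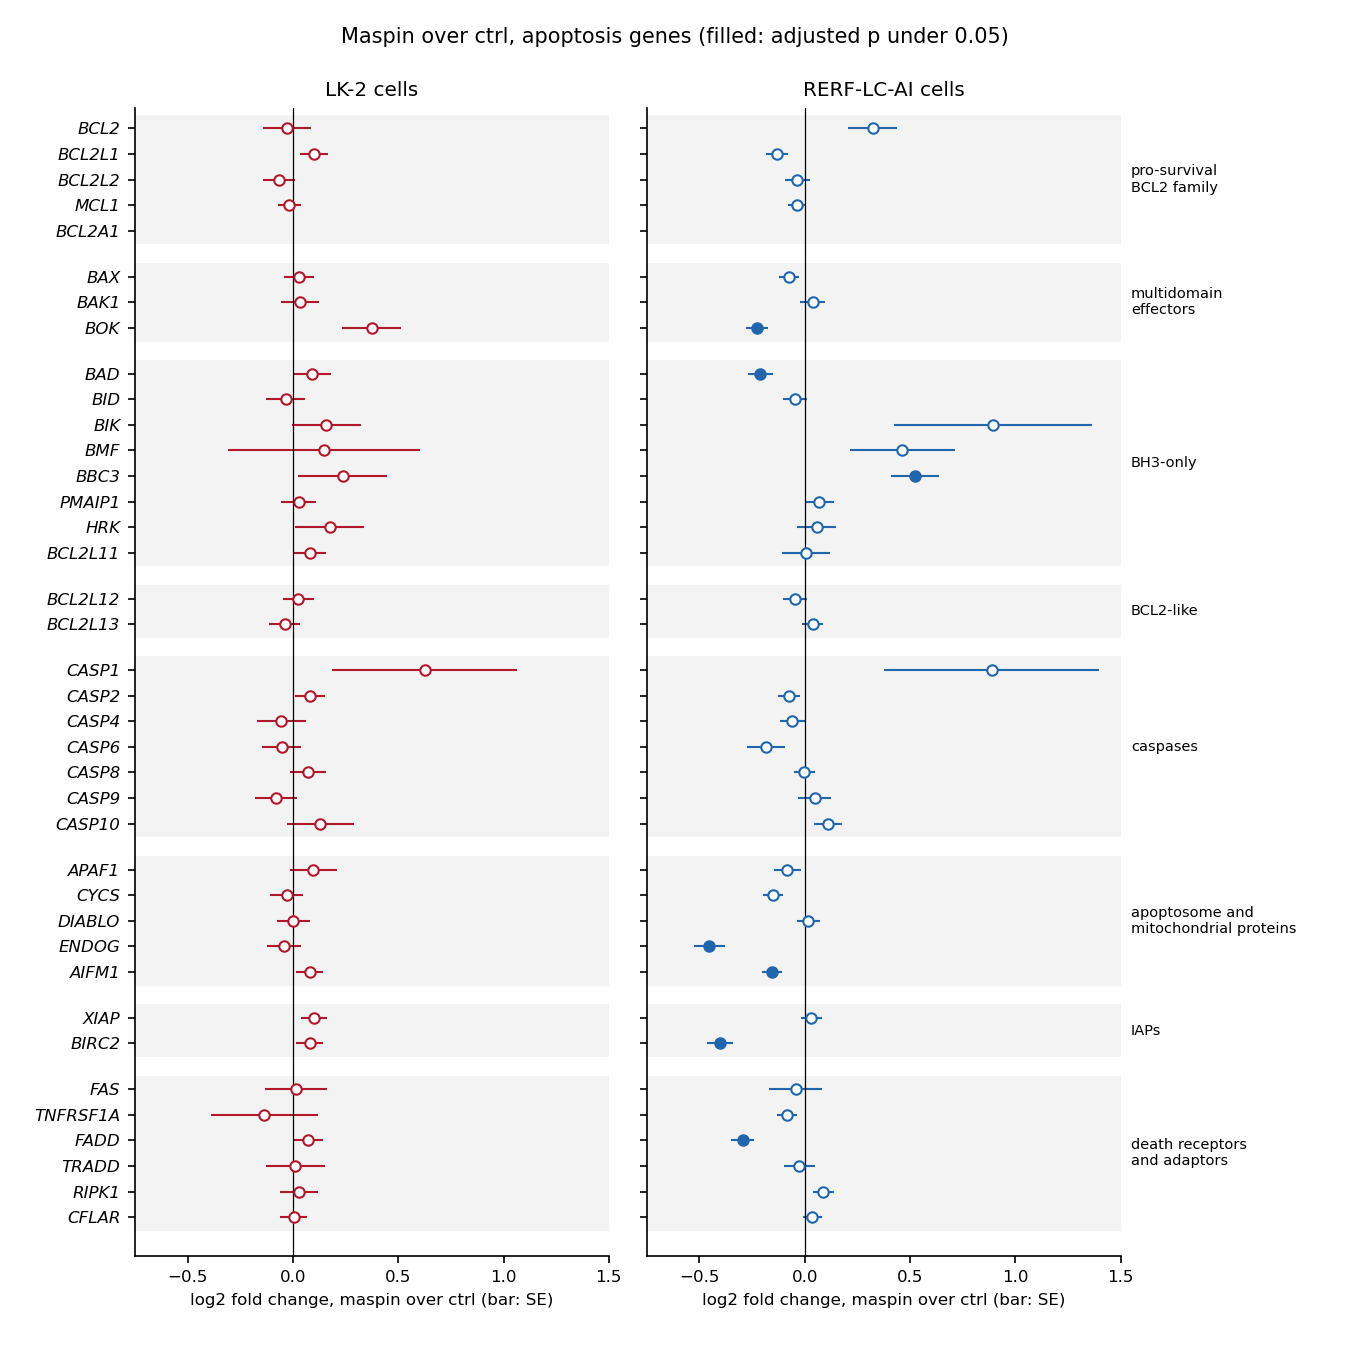
Horizontal axis: log2 fold change, maspin over ctrl, with a bar of 1 SE, for the apoptosis genes, ordered by role down the page, in LK-2 (left) and RERF-LC-AI cells (right). Filled points have an adjusted p under 0.05. They are 0 of 37 genes in LK-2 cells and 7 of 37 in RERF-LC-AI cells, with BBC3 alone to the right of 0, and the widest bars belong to CASP1, BIK and BMF. BCL2A1 was not tested and has no point.

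The promoters of the 3 genes that fell with the smallest adjusted p, BIRC2, ENDOG and FADD, are shown because these calls kept their side of the threshold in all 16 alternative analyses of RERF-LC-AI cells. The windows are from RefSeq (GRCh38.p14), written 5′ to 3′ on the strand of the gene, with 250 bases before the transcription start and 50 from it on. A window was matched for 32 of the 38 genes. Capitals mark matches, on either strand, to the GC box (GGGCGG), the CCAAT box (CCAAT), the E-box (CACGTG), the cyclic AMP response element (TGACGTCA), the AP-1 site (TGANTCA), the TATA box (TATAAA), the NF-kB consensus or the p53 decamer consensus. No 2 of these motifs overlap in the windows shown.
BIRC2 promoter, chr11:102346964-102347263, plus strand: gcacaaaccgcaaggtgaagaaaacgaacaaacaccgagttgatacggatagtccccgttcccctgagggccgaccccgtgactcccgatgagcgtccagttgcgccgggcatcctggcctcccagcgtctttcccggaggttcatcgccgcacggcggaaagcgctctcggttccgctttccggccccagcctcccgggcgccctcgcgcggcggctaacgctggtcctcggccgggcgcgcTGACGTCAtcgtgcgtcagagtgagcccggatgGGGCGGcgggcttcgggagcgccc
ENDOG promoter, chr9:128818250-128818549, plus strand: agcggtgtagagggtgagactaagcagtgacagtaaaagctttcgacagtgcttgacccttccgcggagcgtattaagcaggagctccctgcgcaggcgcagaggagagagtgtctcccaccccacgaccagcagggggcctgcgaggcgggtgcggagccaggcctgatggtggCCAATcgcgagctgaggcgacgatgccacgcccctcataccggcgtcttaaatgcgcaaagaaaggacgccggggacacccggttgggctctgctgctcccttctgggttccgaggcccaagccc
FADD promoter, chr11:70203046-70203345, plus strand: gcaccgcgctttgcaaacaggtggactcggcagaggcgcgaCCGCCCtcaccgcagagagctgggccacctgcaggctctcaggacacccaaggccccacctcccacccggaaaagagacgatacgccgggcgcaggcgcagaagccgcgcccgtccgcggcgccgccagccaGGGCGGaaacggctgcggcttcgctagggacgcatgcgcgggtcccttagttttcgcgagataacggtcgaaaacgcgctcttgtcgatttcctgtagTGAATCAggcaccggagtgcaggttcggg
All 3 windows are rich in G and C, at 68.7, 63.7 and 66.7%, where the median of 35116 windows of this length was 58.7% and that of the 32 apoptosis gene windows 66.5%. The BIRC2 window holds a cyclic AMP response element at positions -7 to 1, across the start site, a motif found in 1.85% of all windows, and a GC box at positions 27 to 32 of the transcript. The FADD window holds GC boxes at positions -209 to -204 and -77 to -72, a motif found in 45.0% of all windows, and an AP-1 site at positions 22 to 28, found in 7.71%. The ENDOG window holds a single CCAAT box, at positions -75 to -71, found in 34.6% of all windows. The E-box (7.26% of all windows), the TATA box (11.5%), the NF-kB consensus (11.3%) and the p53 decamer consensus (6.63%) had no match in the 3 windows. A match is a run of letters and not a measured site. The RefSeq window of BBC3 lies 1468 bases from the start of its MANE Select transcript and is not shown.

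Of the pro-survival BCL2 genes, none passed the quasi-likelihood test in either line (0 of 4 tested in each), and MCL1 led by far. MCL1, a short-lived guard of BAX and BAK1, had 608, 603 and 594 CPM in LK2-maspin libraries, against 627, 624 and 576 CPM in LK2-ctrl libraries. It had 417, 416 and 414 CPM in LC-AI-maspin libraries, against 434, 420.1 and 425 CPM in LC-AI-ctrl libraries. The LK-2 groups overlapped, and the LC-AI-maspin libraries all lay just below the LC-AI-ctrl libraries, with log2 fold changes of -0.02 and -0.04 (adjusted p = 0.71 for the RERF-LC-AI value). Per kb of transcript, MCL1 made up 80.1 ± 1.57% of the summed level of the 5 pro-survival genes in LK2-ctrl and 74.8 ± 0.113% in LC-AI-ctrl cells (SD, n = 3 each), and BCL2L1, which encodes BCL-XL, made up 14.1 ± 1.15% and 16.7 ± 0.464%. BCL2 itself, the founding member of the family, stood at the other end of the tested genes, with 0.745% and 0.506%. In RERF-LC-AI cells it had 5.84, 6.66 and 6.34 CPM in LC-AI-maspin libraries, against 4.64, 5.38 and 5.05 CPM in LC-AI-ctrl libraries. These libraries did not overlap, yet the log2 fold change of 0.32 (SE 0.12) did not pass, at an adjusted p of 0.0814. BCL2L1 had -0.13 ± 0.05 (adjusted p = 0.132). With the replicate number as a block both passed (adjusted p = 0.0305 for BCL2 and 0.035 for BCL2L1). The log2 fold change was, for BCL2L2, which encodes BCL-W, -0.04 (adjusted p = 0.813). The largest value of this group in LK-2 cells was 0.10 for BCL2L1 (adjusted p = 0.955).

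Of the 3 multidomain effectors, which form the pores of the outer mitochondrial membrane, BOK fell in LC-AI-maspin cells while BAX and BAK1 did not pass. BOK, the effector that escapes most of the control by pro-survival proteins, had 51.2, 55.7 and 51.9 CPM in LC-AI-maspin libraries, against 60.9, 61.8 and 63.3 CPM in LC-AI-ctrl libraries. All 3 LC-AI-maspin libraries were below all 3 LC-AI-ctrl libraries, and the log2 fold change was -0.23 ± 0.05 (adjusted p = 0.0033). In LK-2 cells BOK had 12.2, 18.3 and 15.6 CPM in LK2-maspin libraries, against 10.9, 11.6 and 13 CPM in LK2-ctrl libraries. LK2-maspin replicates 2 and 3 were above all LK2-ctrl libraries and replicate 1 lay among them, with a log2 fold change of 0.37 ± 0.14 (adjusted p = 0.588). BAX, the most abundant effector, had 53.9, 54.4 and 50.7 CPM in LK2-maspin libraries, against 54.5, 53.2 and 48.1 CPM in LK2-ctrl libraries. It had 83.6, 88.5 and 85.8 CPM in LC-AI-maspin libraries, against 91.0, 90.2 and 90.2 CPM in LC-AI-ctrl libraries. Its LK-2 groups overlapped, and its RERF-LC-AI groups lay apart by a log2 fold change of only -0.07 (adjusted p = 0.417). BAK1, its close relative, had log2 fold changes of 0.03 in LK-2 cells and 0.04 in RERF-LC-AI cells. With all 12 libraries in 1 fit, which takes its spread from both lines, the adjusted p of BOK in RERF-LC-AI cells was 0.25.

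Of the 8 BH3-only genes, which antagonise pro-survival proteins, BBC3 rose and BAD fell in LC-AI-maspin cells, and 6 did not pass. BBC3 encodes PUMA, a target of p53 that binds all pro-survival proteins, and it had 9.53, 10.0 and 8.85 CPM in LC-AI-maspin libraries, against 7.91, 5.86 and 6.00 CPM in LC-AI-ctrl libraries. Every LC-AI-maspin library was above every LC-AI-ctrl library, of which replicate 1 was the highest, and the log2 fold change was 0.52 ± 0.11 (adjusted p = 0.00169), the largest among the called apoptosis genes. In LK-2 cells it had 4.86, 5.12 and 6.85 CPM in LK2-maspin libraries, against 3.61, 4.28 and 6.40 CPM in LK2-ctrl libraries. The LK-2 groups overlapped, with replicate 3 highest in both, and the log2 fold change was 0.24 ± 0.21 (adjusted p = 0.988). BAD, which links survival kinases to BCL-XL, had 42.4, 46.8 and 48.8 CPM in LC-AI-maspin libraries, against 55.2, 50.1 and 54.6 CPM in LC-AI-ctrl libraries. The LC-AI-maspin libraries were all below the LC-AI-ctrl libraries, the nearest of them by little, with a log2 fold change of -0.21 ± 0.06 (adjusted p = 0.0166). In LK-2 cells BAD had 29.9, 31.9 and 27.0 CPM in LK2-maspin libraries, against 29.4, 28.8 and 25.1 CPM in LK2-ctrl libraries. These groups overlapped, and the log2 fold change was 0.09 ± 0.09 (adjusted p = 0.997).

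The call of BAD missed the threshold when any of several single libraries was left out, and under some other settings. Its adjusted p was 0.0648 without LC-AI-ctrl replicate 1, 0.104 without LC-AI-ctrl replicate 3, 0.146 without LC-AI-maspin replicate 1, 0.0531 with library size only and 0.207 with all 12 libraries in 1 fit. That last fit gave 0.1 for BBC3, and BBC3 passed in each of the other 15 alternatives. The remaining BH3-only genes are BID, which caspase-8 cuts to its active form, BIK, BMF, PMAIP1 (which encodes NOXA), HRK and BCL2L11 (which encodes BIM). Their log2 fold changes ran from -0.05 (BID) to 0.89 (BIK) in RERF-LC-AI and from -0.03 (BID) to 0.18 (HRK) in LK-2 cells. The BIK value stands on 14 to 39 counts in LC-AI-maspin and 5 to 18 counts in LC-AI-ctrl libraries (SE 0.47, adjusted p = 0.287). The BCL2-like genes BCL2L12 and BCL2L13 did not pass in either line. BCL2L12, the more abundant of the pair, had 37.5, 37.5 and 34.4 CPM in LK2-maspin libraries, against 38.0, 36.0 and 33.4 CPM in LK2-ctrl libraries. It had 47.0, 48.6 and 50.7 CPM in LC-AI-maspin libraries, against 47.3, 53.3 and 50.4 CPM in LC-AI-ctrl libraries. The groups of both lines overlapped, and the log2 fold changes were 0.03 and -0.05, beside -0.04 and 0.04 for BCL2L13.

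**Figure D2:**
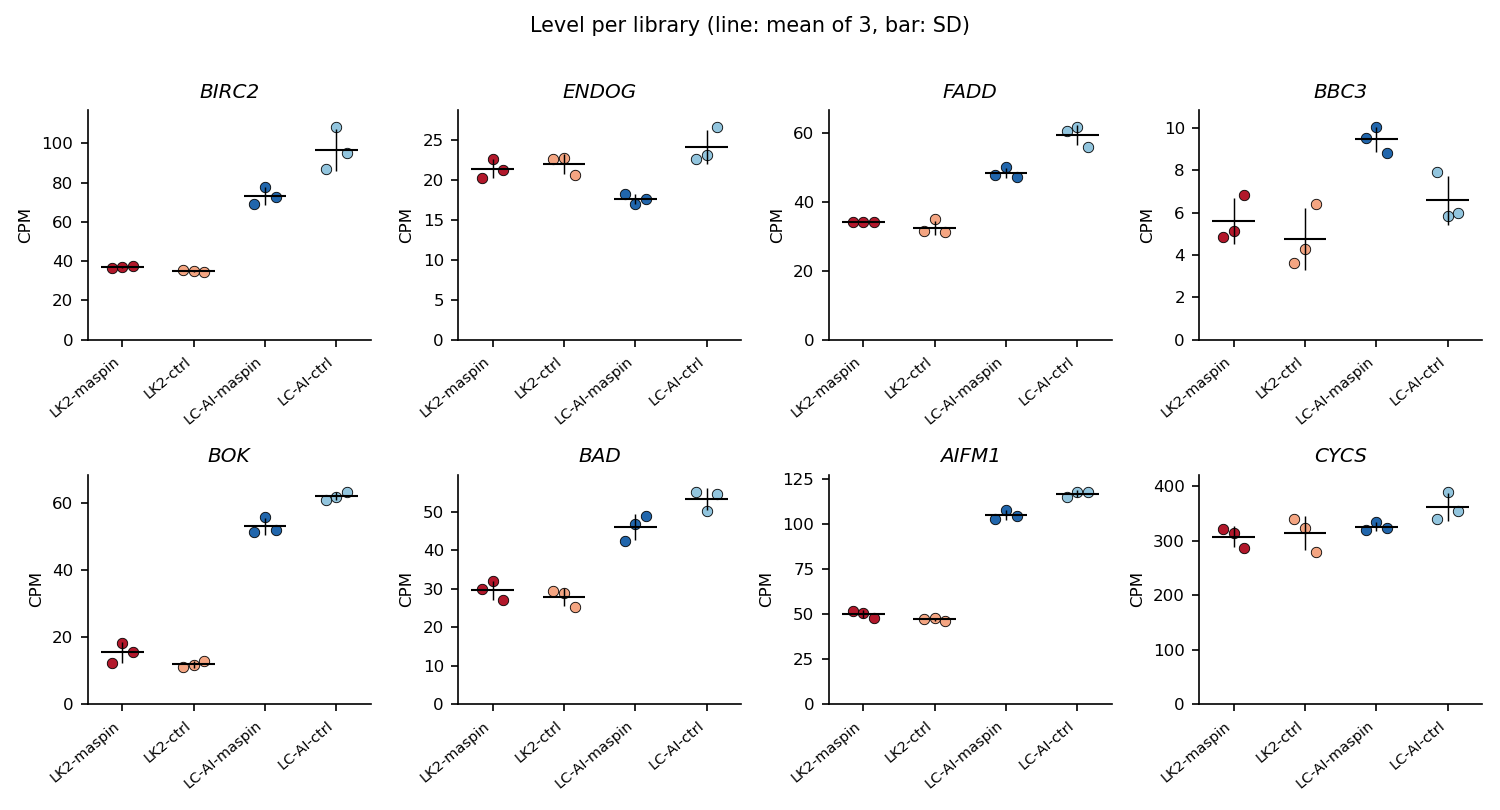
CPM (vertical, from 0) of the 7 apoptosis genes called in RERF-LC-AI cells and of CYCS, with 1 point per library in LK2-maspin, LK2-ctrl, LC-AI-maspin and LC-AI-ctrl cells, a line at the mean of 3 and a bar of 1 SD. In each of the 7, no LC-AI-maspin library reaches into the range of the LC-AI-ctrl libraries, whereas the LK-2 groups overlap for all but BIRC2. The 7 were chosen by the test of these same libraries, so that their separation is no further support. Uncalled genes such as CYCS and BCL2 also had RERF-LC-AI groups that did not overlap.

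Of the 7 caspases none passed the test in either line. The quasi-likelihood test of edgeR left 0 with an unadjusted p under 0.05 in both lines, and the likelihood ratio test and DESeq2 called 0. CASP6, an executioner and the most abundant of the 7 in LK-2 cells, had 37.4, 35.9 and 32.8 CPM in LK2-maspin libraries, against 38.9, 39.3 and 31.7 CPM in LK2-ctrl libraries. It had 11.1, 12.5 and 12.3 CPM in LC-AI-maspin libraries, against 14.6, 11.9 and 14.4 CPM in LC-AI-ctrl libraries. The LK-2 groups overlapped, and in RERF-LC-AI cells LC-AI-ctrl replicate 2 lay among the LC-AI-maspin libraries, at -0.18 (adjusted p = 0.241). CASP8, the initiator that death receptors recruit and the most abundant of the 7 in RERF-LC-AI cells, had 69.4, 68.9 and 67.7 CPM in LC-AI-maspin libraries, against 70.0, 67.8 and 68.2 CPM in LC-AI-ctrl libraries. It had 17.3, 17.1 and 16.0 CPM in LK2-maspin libraries, against 16.4, 16.4 and 15.1 CPM in LK2-ctrl libraries. The log2 fold changes were 0.07 (SE 0.09) in LK-2 and -0.001 (SE 0.05) in the other line, so that its 2 RERF-LC-AI groups were nearly level. CASP10, its neighbour in the death receptor route, had 0.13 and 0.11. CASP9, the initiator of the apoptosome, had -0.08 and 0.05, and CASP2, an initiator that PIDD1 activates, 0.08 and -0.07. CASP4, an inflammatory caspase, had -0.06 and -0.06. CASP1, the inflammatory caspase that matures interleukin-1β, had the widest error of the 7 (log2 fold changes 0.63, SE 0.44, and 0.89, SE 0.51) on 4 to 38 counts a library.

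Of the 5 genes of the apoptosome and of mitochondrial proteins, ENDOG and AIFM1 fell in LC-AI-maspin cells, and APAF1, CYCS and DIABLO did not pass. Both genes that fell encode proteins known to move from the mitochondrion to the nucleus and to take part in DNA breakdown without caspases. ENDOG, a nuclease whose exons overlap those of SPOUT1 on the opposite strand, had 18.2, 17 and 17.7 CPM in LC-AI-maspin libraries, against 22.6, 23.2 and 26.6 CPM in LC-AI-ctrl libraries. The LC-AI-maspin libraries lay within a narrow range below all LC-AI-ctrl libraries, and the log2 fold change of -0.45 ± 0.07 (adjusted p = 5.87e-05) was the largest fall among the apoptosis genes. In LK-2 cells ENDOG had 20.3, 22.6 and 21.3 CPM in LK2-maspin libraries, against 22.6, 22.8 and 20.6 CPM in LK2-ctrl libraries, groups that overlapped, with a log2 fold change of -0.04 (adjusted p = 1). AIFM1, apoptosis-inducing factor, had 102, 108 and 104 CPM in LC-AI-maspin libraries, against 115, 118 and 118 CPM in LC-AI-ctrl libraries. All LC-AI-maspin libraries were below all LC-AI-ctrl libraries by a log2 fold change of -0.16 ± 0.05 (adjusted p = 0.0283), the smallest of the called changes. In LK-2 cells AIFM1 had 51.6, 50.3 and 47.6 CPM in LK2-maspin libraries, against 47.4, 47.8 and 46.2 CPM in LK2-ctrl libraries, and the groups overlapped, with a log2 fold change of 0.08. The adjusted p of AIFM1 in RERF-LC-AI cells was 0.0701 and 0.139 without LC-AI-ctrl replicates 2 and 3, 0.109 and 0.135 without LC-AI-maspin replicates 1 and 3, and 0.16 with all 12 libraries in 1 fit.

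CYCS, cytochrome c, came closest to the threshold among the uncalled genes of RERF-LC-AI cells. It had 319, 334 and 323 CPM in LC-AI-maspin libraries, against 339, 390.0 and 355 CPM in LC-AI-ctrl libraries. All LC-AI-maspin libraries were below all LC-AI-ctrl libraries, and the log2 fold change was -0.15 ± 0.05 (adjusted p = 0.0506). The likelihood ratio test gave an adjusted p of 0.0457, DESeq2 0.0291, the replicate block 0.000733, and leaving out LC-AI-ctrl replicate 1 0.0133, so that its side of the threshold depended on the analysis. In LK-2 cells CYCS had 322, 315 and 286 CPM in LK2-maspin libraries, against 339, 322 and 279.9 CPM in LK2-ctrl libraries, overlapping groups with a log2 fold change of -0.03. CYCS has many processed pseudogenes, and the sources used here do not say how reads were shared between them. APAF1, the scaffold of the apoptosome, had 0.10 and -0.08, and DIABLO, which relieves caspases of IAPs, 0.00 and 0.02.

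Of the 2 IAPs, BIRC2 fell in LC-AI-maspin cells and XIAP did not pass. BIRC2 encodes cIAP1, a ubiquitin ligase that keeps RIPK1 at the TNF receptor in its survival role, and its promoter is the first of those printed above. It had 68.9, 77.8 and 72.6 CPM in LC-AI-maspin libraries, against 87.0, 108 and 94.8 CPM in LC-AI-ctrl libraries. The LC-AI-maspin libraries were all below the LC-AI-ctrl libraries, which themselves spread widely, and the log2 fold change was -0.40 ± 0.06 (adjusted p = 2.69e-05), the smallest adjusted p among the apoptosis genes. In LK-2 cells BIRC2 had 36.5, 37.1 and 37.7 CPM in LK2-maspin libraries, against 35.8, 34.8 and 34.7 CPM in LK2-ctrl libraries. Here the LK2-maspin libraries were all slightly above the LK2-ctrl libraries, at a log2 fold change of 0.08 ± 0.06 (adjusted p = 0.982). XIAP, which binds and blocks caspases directly, had log2 fold changes of 0.10 and 0.03 (adjusted p = 0.92 and 0.797). As a share of the summed level of both genes per kb, BIRC2 made up 56.9 ± 0.664% in LC-AI-maspin against 64.0 ± 2.02% in LC-AI-ctrl cells, and 57.7 ± 0.736% in LK2-maspin against 58.1 ± 0.267% in LK2-ctrl cells (SD, n = 3 each).

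Of the 6 death receptor genes, the adaptor FADD fell in LC-AI-maspin cells and 5 did not pass. FADD, which couples receptors to caspase-8, had 47.8, 50.1 and 47.3 CPM in LC-AI-maspin libraries, against 60.5, 61.6 and 56.0 CPM in LC-AI-ctrl libraries. All LC-AI-maspin libraries were below all LC-AI-ctrl libraries, with a log2 fold change of -0.29 ± 0.05 (adjusted p = 0.000289). In LK-2 cells it had 34.2, 34.1 and 34.1 CPM in LK2-maspin libraries, against 31.4, 34.9 and 31.1 CPM in LK2-ctrl libraries. The LK2-maspin libraries were almost level and lay within the range of the LK2-ctrl libraries, at a log2 fold change of 0.07 (adjusted p = 0.998). TNFRSF1A, the main TNF receptor and the most abundant of the 6 in RERF-LC-AI cells, had 149.8, 153 and 145 CPM in LC-AI-maspin libraries, against 161, 157 and 156 CPM in LC-AI-ctrl libraries. It had 3.32, 3.09 and 5.15 CPM in LK2-maspin libraries, against 3.09, 3.71 and 5.96 CPM in LK2-ctrl libraries. The RERF-LC-AI groups lay apart by -0.08 on the log2 scale (adjusted p = 0.314), and the LK-2 groups overlapped, with replicate 3 the highest in both. FAS, the receptor of FAS ligand, had log2 fold changes of 0.01 and -0.04, and the adaptor TRADD 0.01 and -0.03. RIPK1, the kinase at the branch of survival and death, had 0.03 and 0.09. CFLAR, the decoy of caspase-8, had 0.00 and 0.04, with an SE of 0.07 and 0.05.

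The difference of the maspin effect between the lines (LK-2 minus RERF-LC-AI) was an interaction term fitted to the 12 libraries, and BOK and BIRC2 passed its test. These are 2 of 37 apoptosis genes, or 5.41%, where 1.76% of all 28123 genes passed. With the replicate number as a block 7 passed, where 8.08% of all genes did, and FADD, ENDOG, AIFM1, BAD and BCL2L1 were those added (adjusted p = 0.00121, 0.00546, 0.0153, 0.0172 and 0.0377). For BOK the difference was 0.60 (SE 0.14, adjusted p = 0.036), from 0.37 in LK-2 cells and -0.23 in RERF-LC-AI cells. For BIRC2 it was 0.48 (SE 0.11, adjusted p = 0.0195), from 0.08 and -0.40. Neither gene passed in LK-2 cells alone in the fit without a block. FADD and ENDOG missed the threshold with differences of 0.36 (adjusted p = 0.06) and 0.41 (adjusted p = 0.0974), and passed under the likelihood ratio test (0.0228 and 0.0454) and DESeq2 (0.00823 and 0.0108). BBC3, which rose in LC-AI-maspin cells, had a difference of -0.28 (SE 0.25 and adjusted p = 0.728), so that a difference between the lines was not detected for it. AIFM1 had 0.23 and BAD 0.30 (adjusted p = 0.195 and 0.286). The remaining 30 tested genes had adjusted p from 0.257 (BCL2L1) to 0.997 (CASP4).

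Both interaction calls missed the threshold when any of several single libraries was left out, which left 2 libraries in its group. Without LC-AI-ctrl replicate 2 the adjusted p was 0.084 for BOK and 0.0638 for BIRC2, without LC-AI-ctrl replicate 3 it was 0.103 and 0.0509, and with LC-AI-maspin replicate 1 left out it was 0.0931 and 0.0679. Without LC-AI-maspin replicate 3 it was 0.108 and 0.0661, with LK2-maspin replicate 2 left out 0.106 and 0.055, and with LK2-ctrl replicate 2 left out 0.0953 and 0.0533. BOK also missed it without LC-AI-ctrl replicate 1 (0.0513), LK2-ctrl replicate 1 (0.0667) and LK2-maspin replicate 3 (0.057). The differences themselves stayed between 0.48 and 0.74 for BOK and between 0.39 and 0.58 for BIRC2 in the 18 alternatives.

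Most of the apoptosis genes stood lower in LK2-ctrl than in LC-AI-ctrl cells. The lines were not tested against each other, because cell line, medium, count table and SAMtools version cannot be told apart. For this comparison CPM were scaled by TMM over all 12 libraries and divided by the length of the MANE Select transcript in kb. The libraries of LK2-ctrl and LC-AI-ctrl did not overlap for 33 of the 37 genes (89.2%), 6 higher and 27 lower in LK2-ctrl, where 66.3% of all genes tested did not overlap. More than 2-fold apart were 18 genes (48.6%), 4 higher and 14 lower, where 34.7% of all genes were. The median log2 ratio of LK2-ctrl over LC-AI-ctrl was -0.68 over the apoptosis genes and 0.11 over all genes.

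The widest gap was in TNFRSF1A, with 1.83 ± 0.642 CPM per kb in LK2-ctrl and 78.9 ± 1.06 CPM per kb in LC-AI-ctrl cells (SD, n = 3 each), a 43.2-fold lower mean in LK2-ctrl. Other genes of the death receptor route were lower too. CASP10 had 0.628 ± 0.0717 in LK2-ctrl against 4.17 ± 0.252 CPM per kb in LC-AI-ctrl cells, TRADD 2.91 ± 0.187 against 14.7 ± 0.972, CASP8 5.60 ± 0.291 against 28.0 ± 0.315, and RIPK1 4.71 ± 0.449 against 17.1 ± 0.481. BOK was 6.09-fold lower in LK2-ctrl (4.20 ± 0.353 against 25.6 ± 0.571 CPM per kb) and BIRC2 3.20-fold lower (8.70 ± 0.147 against 27.8 ± 3.39). FAS was nearly level, with 1.33 ± 0.111 and 1.37 ± 0.0990 CPM per kb, and so were BCL2L1 and DIABLO.

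The 4 genes more than 2-fold higher in LK2-ctrl were 3 BH3-only genes and an executioner caspase. BIK, which acts at the endoplasmic reticulum, had 4.47 ± 0.715 in LK2-ctrl against 0.264 ± 0.148 CPM per kb in LC-AI-ctrl cells, and BMF 0.825 ± 0.504 against 0.208 ± 0.0427. BCL2L11 had 5.60 ± 0.254 against 1.53 ± 0.164, and CASP6 20.9 ± 2.49 against 9.03 ± 0.902. Within a line, MCL1 ranked first of the 38 in LK2-ctrl (144 ± 7.16 CPM per kb), followed by BAX (60.9 ± 4.16) and CYCS (53.9 ± 5.37), levels whose libraries did not overlap for the top pair and did for BAX and CYCS. In LC-AI-ctrl BAX (123 ± 1.1) and MCL1 (117 ± 1.09) led, and TNFRSF1A (78.9 ± 1.06) came next, ahead of CYCS (72.1 ± 5.99). BCL2A1 and CASP1 were last in both lines. Each of the 7 genes called in RERF-LC-AI cells was among the 27 of 37 tested genes that were lower in LK2-ctrl without overlap. This cannot be read as a trait of the called genes.

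**Figure D3:**
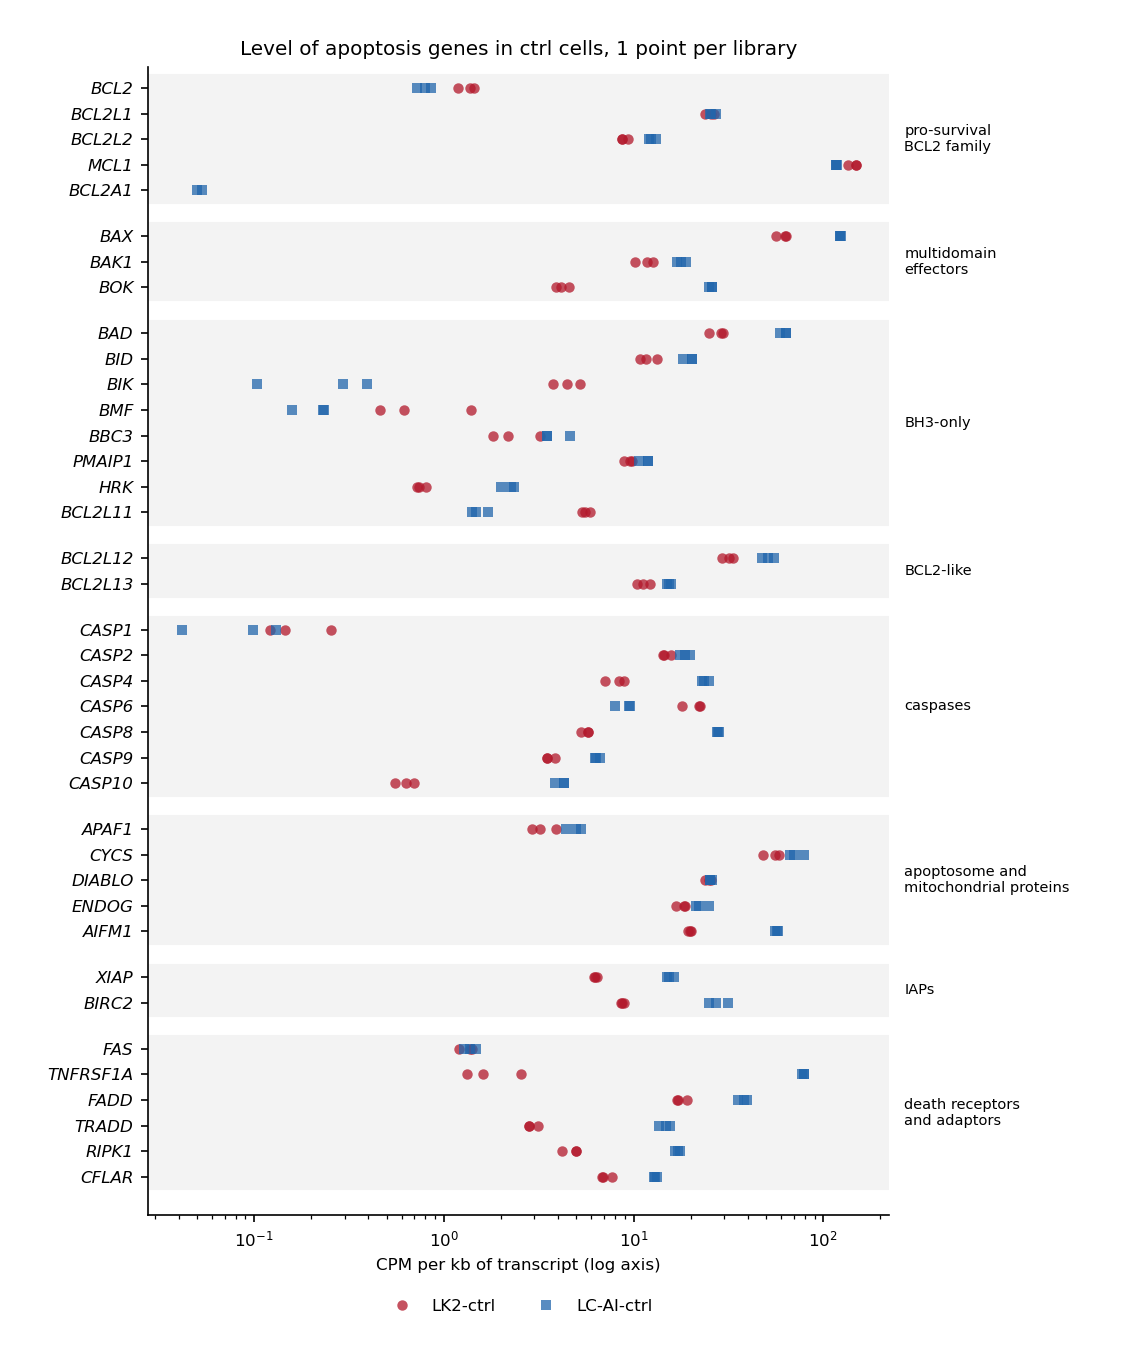
CPM per kb of transcript (horizontal, log axis) of the 38 apoptosis genes in LK2-ctrl (circles) and LC-AI-ctrl cells (squares), ordered by role down the page, with 1 point per library. The points of TNFRSF1A lie near 1.83 in LK2-ctrl and 78.9 in LC-AI-ctrl cells, BIK, BMF, BCL2L11 and CASP6 lie to the right in LK2-ctrl, and libraries at 0, as BCL2A1 in LK2-ctrl cells, are not drawn.

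The typical apoptosis gene varied less between libraries than the typical gene, and a few varied far more. The median coefficient of variation was 6.26% in LK2-maspin, 7.29% in LK2-ctrl, 3.82% in LC-AI-maspin and 5.24% in LC-AI-ctrl libraries, against 11.6, 12.9, 9.26 and 10.1% over all genes. The 2 sets were not matched for expression level, so that the lower medians cannot be read as a trait of apoptosis genes. In RERF-LC-AI cells BIK varied most, at 37.1% in LC-AI-maspin and 56.5% in LC-AI-ctrl libraries, followed by CASP1 (29.3 and 49.8%) and BMF (25.8 and 21.4%). BMF, a BH3-only gene tied to loss of cell attachment, varied most in LK-2 cells, with 1.87, 4.41 and 7.51 CPM in LK2-maspin libraries, against 2.31, 3.08 and 7.07 CPM in LK2-ctrl libraries. Replicate 3 was the highest in both groups, 4.02-fold above the lowest in LK2-maspin and 3.06-fold in LK2-ctrl cells, while the group means differed by 1.11-fold. TNFRSF1A varied 1.67-fold in LK2-maspin and 1.93-fold in LK2-ctrl cells and BBC3 1.41-fold and 1.77-fold, again with replicate 3 the highest in both groups. CASP1 varied more than 2-fold in both groups, on 14 to 38 counts. Among all genes, too, the first principal component of the LK-2 libraries (26.8% of the variance) did not separate LK2-maspin from LK2-ctrl, and the second (23.1%) did, whereas the first component of RERF-LC-AI libraries (28.9%) separated LC-AI-maspin from LC-AI-ctrl. What the libraries numbered 3 share was not tested.

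**Figure D4:**
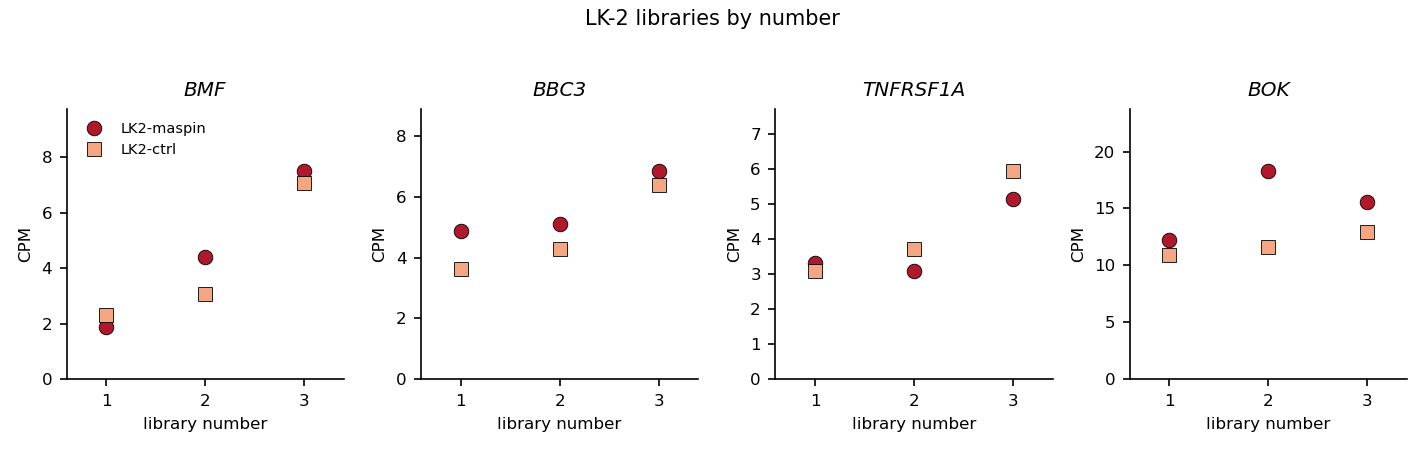
CPM (vertical, from 0) of BMF, BBC3, TNFRSF1A and BOK in the 3 LK2-maspin (circles) and 3 LK2-ctrl libraries (squares), placed by library number. For BMF, BBC3 and TNFRSF1A the library numbered 3 is the highest of each group, and for BOK it is LK2-maspin replicate 2, at 18.3 CPM.

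Among further genes of connected pathways, kept in 3 lists, no gene passed in LK2-maspin cells and a minority passed in LC-AI-maspin cells in edgeR's quasi-likelihood test. Of all genes, this test called 0.533% in LK-2 cells and 10.5% in RERF-LC-AI cells. Of 39 other genes of the apoptosis pathway, 35 were tested in RERF-LC-AI cells, and 3 rose, 4 fell and 28 did not pass (median log2 fold change -0.01). That is 8.57% higher and 11.4% lower, where 4.01% and 6.53% of all genes were. BIRC3, which encodes cIAP2 and is the close relative of BIRC2, had 30.4, 34.7 and 31.8 CPM in LC-AI-maspin libraries, against 24.6, 27.8 and 21.0 CPM in LC-AI-ctrl libraries. It rose, by 0.40 ± 0.08 (adjusted p = 0.000526), where BIRC2 fell. TRAF2, the adaptor that binds both to the TNF receptor, fell, with a log2 fold change of -0.21 ± 0.05 (adjusted p = 0.00625), and the co-chaperone BAG3 fell, with -0.17 ± 0.05 (adjusted p = 0.0192). Without LC-AI-ctrl replicate 3 or LC-AI-maspin replicate 1 the adjusted p of BAG3 was 0.177 or 0.114, and with all 12 libraries in 1 fit BIRC3, TRAF2 and BAG3 missed the threshold (0.0808, 0.0808 and 0.131). In LK-2 cells 0 of 35 genes passed in the same test, 3 had an unadjusted p under 0.05, and the likelihood ratio test and DESeq2 called 0.

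Of 25 p53 target genes outside the 38, all tested, 3 rose, 3 fell and 19 did not pass in RERF-LC-AI cells, with a median log2 fold change of -0.04. That is 12% higher and 12% lower, where 4.01% and 6.53% of all genes were. SESN2, a stress-induced sestrin, had 84.4, 101 and 81.8 CPM in LC-AI-maspin libraries, against 64.5, 59.9 and 53 CPM in LC-AI-ctrl libraries, and rose by 0.59 ± 0.07 (adjusted p = 3.31e-07) like BBC3. PLK2 fell, with a log2 fold change of -0.32 ± 0.05 (adjusted p = 2.95e-05), CCNG1, cyclin G1, with -0.24 ± 0.05 (adjusted p = 0.0019), and TP53INP1 with -0.55 ± 0.12 (adjusted p = 0.00232). The p53 targets thus went both ways. With all 12 libraries in 1 fit TP53INP1 and PYCARD missed the threshold (adjusted p = 0.334 and 0.0603). Of 22 partners of the inflammatory caspases and of RIPK1, 19 were tested in RERF-LC-AI cells, and PYCARD, the adaptor of inflammasomes, was the single call of the quasi-likelihood test, with 6.36, 6.38 and 4.60 CPM in LC-AI-maspin libraries, against 8.60, 8.12 and 8.02 CPM in LC-AI-ctrl libraries, a log2 fold change of -0.52 ± 0.12 (adjusted p = 0.00336) that missed the threshold without LC-AI-maspin replicate 3 (adjusted p = 0.057). This single call is 5.26% of the partners tested, where 10.5% of all genes passed. DESeq2 called 2 of 13 partners, PYCARD and MLKL, the pore-forming executor of necroptosis, where it called 11.3% of all genes. The replicate block gave 4 of 19, all lower, where 16.2% of all genes passed. In LK-2 cells 0 of 25 p53 targets and 0 of 19 partners passed in edgeR's quasi-likelihood test, with 4 and 1 at an unadjusted p under 0.05 and 0 under the likelihood ratio test and DESeq2. With the replicate number as a block, 3 of 35 other apoptosis genes, 4 of 25 p53 targets and 0 of 19 partners passed in LK-2 cells, where 4.53% of all genes did.

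Several of the 38 genes share transcribed sequence with other genes, and the sources used here do not say whether the counting used strand. Exons of 14 genes overlap an exon on the opposite strand, and for 7 of them more than 10% of the exon bases do (GENCODE 44). For ENDOG the share is 40.1%, mostly with SPOUT1, which had a log2 fold change of -0.22 in RERF-LC-AI cells (SE 0.05, adjusted p = 0.00493). For FADD it is 59.2%, and for BAD 33.8% with GPR137, which had -0.08 (adjusted p = 0.545). If strand was not used, reads of these genes and their partners cannot be told apart. BCL2L2 shares 16.7% of its exon bases with the read-through gene BCL2L2-PABPN1 on the same strand, and DIABLO all of them with read-through annotations. SPOUT1 and GPR137 were named after their values were seen.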

How the data were processed

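The mRNA of 12 libraries (3 in each of 4 groups) had been sequenced on a NovaSeq instrument from strand-specific libraries. The authors trimmed reads with Trimmomatic 0.39, mapped with BWA 0.7.17 to GRCh38.p13, and used SAMtools 1.12 (LK-2) or 1.10 (RERF-LC-AI). No source used here names the counting tool. The deposited tables hold raw counts of mapped reads per gene, and of counts from 1 to 9 only 23.7 to 26.0% are odd. The tables also hold signal columns, scaled by the authors to the library total or with TMM factors of edgeR 3.16.5, which were not used. The 646 lines of a table without a gene symbol (0.292 to 0.416% of the counts) were left out.

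Each line was fitted alone with edgeR 4.0.16 and its quasi-likelihood F test (R 4.3.3, limma 3.58.1, statmod 1.5.0), TMM factors and the default filter (minimum count 10, minimum total 15). The difference between lines was an interaction over 12 libraries. The common biological coefficient of variation was 11.7% for LK-2 and 6.43% for RERF-LC-AI cells. No 2 libraries of a group matched within the counting noise of independent counts (chi-square over its degrees of freedom, 4.44 to 23.9). The small share of odd counts puts that independence in doubt, so that the reference may be too strict. Alternatives were edgeR's likelihood ratio test, DESeq2 1.42.0, RLE factors, upper-quartile factors or library size alone in place of TMM, no filter or a filter of 10 counts in every library, 1 fit over all 12 libraries, the replicate number as a block, a threshold of 0.01, and each library left out. Nothing in the labels says that a number is shared. Deviations of equally numbered libraries from their group means correlated at 0.154, 0.0144 and 0.164 in LK-2 cells, and at 0.0437, 0.0533 and 0.00167 in RERF-LC-AI cells, over all genes tested, the measure set for this check. Over genes with a mean log2 CPM above 3 they correlated at 0.744, 0.113 and 0.750, and at 0.369, 0.390 and 0.203. Unequally numbered libraries correlated over these genes at -0.735 to 0.180 in LK-2 cells and at -0.333 to -0.0283 in RERF-LC-AI cells. Deviations from a group mean sum to 0, so that these values are not independent of those of equal numbers. The check thus depends on the genes used, and the main fits have no block. A replicate effect shared by equal numbers, if there is one, stays in the spread of the main fits. The blocked value is given once or more for each apoptosis gene whose call it changes. The scripts were tested on simulated data. Tables were made with Python 3.11.15 and pandas 2.3.3, and figures with matplotlib 3.10.9. Promoter windows are RefSeq's, and exon overlaps come from GENCODE 44, both of GRCh38.

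The 38 genes, the 3 lists of connected genes and the markers were chosen with earlier results of these data known. All 38 genes are named. Values in every library are given for genes called in a line or in the interaction, for the most abundant gene per kb of each of the 8 role groups in each line, and for BCL2, BMF and genes of the lists, which were added after their values were seen. Of a list, up to 4 called genes with the smallest adjusted p are named, except 1 that is not reported here.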

Additional observations from a re-analysis of the deposited data

Results flagged for a closer look

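The maspin effect differed between the lines, by an interaction test over all 12 libraries, for 7 of the genes named here. Each value is the log2 fold change in LK-2 minus that in RERF-LC-AI cells. For BOK it was 0.60 (adjusted p = 0.036, edgeR), and for BIRC2 0.48 (adjusted p = 0.0195). For PLK2, a p53 target, it was 0.54 (adjusted p = 0.00987). For SERPINB5 it was -6.52 (adjusted p = 3.22e-14), with the higher maspin level and the lower ctrl level both in RERF-LC-AI cells. Among the markers it was 0.74 for KRT8, 0.64 for KRT18 and 2.04 for PDGFRB (adjusted p = 1.93e-05, 6.71e-05 and 0.00452). In the full lists the interaction test called 0 of 37 other apoptosis genes and 1 of 20 partners of inflammatory caspases and RIPK1, higher (5%). Of 25 p53 targets it called 1 higher and 1 lower (8%), where 1.76% of all genes passed. The list genes not searched are not given singly. With 3 libraries in a group, no sample was tested as lying far from the others.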

How the results depend on the processing

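In LK-2 cells the count of apoptosis genes called stayed at 0 under 15 of 16 alternatives, among them each library left out (0 to 0). In RERF-LC-AI cells it was 7 and stayed between 5 and 8 when a library was left out (8 without LC-AI-maspin replicate 2, and 5 without LC-AI-ctrl replicate 3 or LC-AI-maspin replicate 1), but was 3 with all 12 libraries in 1 fit, where the spread of LK-2 cells (11.7% against 6.43%) enters. The interaction count of 2 was 4 with the likelihood ratio test, 4 with DESeq2, 4 with no filter, 0 at an adjusted p under 0.01, and 0 to 3 when a library was left out, 0 without LC-AI-ctrl replicate 2 or 3, LC-AI-maspin replicate 1 or 3, or LK2-maspin replicate 2. Where a library was left out, its group had 2 left. Over the named genes, 2578 comparisons with an alternative kept their side of the threshold, 46 gained and 51 lost a call, and 0 called values turned in direction. Values of uncalled genes did turn, as BMF in LK-2 cells (log2 fold change -0.42 to 0.76). Over all genes tested, the share called ran from 0.186 to 4.53% in LK-2 cells, from 4.14 to 16.2% in RERF-LC-AI cells and from 0.697 to 8.08% for the interaction.

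With the replicate number as a block, 1 gene was called in LK-2 cells (BOK, adjusted p = 0.00364), 10 in RERF-LC-AI cells (2 higher and 8 lower, with BCL2, BCL2L1 and CYCS beside the 7) and 7 in the interaction. Of all genes, the blocked fits called 4.53% in LK-2 cells, 16.2% in RERF-LC-AI cells (6.34% higher and 9.85% lower) and 8.08% in the interaction. The block changed no other call of an apoptosis gene.

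Counts under about 40 a library (BIK in RERF-LC-AI cells, CASP1 in both lines) left SEs near 0.5 on the log2 scale, so that changes of the size called elsewhere were not detectable for these genes at this depth.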
